A study of Mus musculus with 8 samples.

Results

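The clustered protocadherins are cadherin-type adhesion proteins of the neuronal surface, encoded by the alpha, beta and gamma gene clusters that follow each other on mouse chromosome 18. Members were the H3K27me3 peaks that overlapped the interval chr18:37085000-38005000 (mm9, 920 kb), which was taken to hold the 3 clusters. There were 38 such peaks among the 208616 peaks of 5 libraries, namely 9 in AstroEGFR 1, 0 in AstroEGFR 3, 5 from PT 1, 11 from PT 3 and 13 from PT 4. No peak crossed an edge of the interval. The 500 kb on each side, called the left and the right flank, held 34 and 200 peaks and served for comparison.

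Chromatin immunoprecipitation followed by sequencing had been used to map H3K27me3 before and after tumour formation. AstroEGFR cells (n = 2) were astrocytes of the cerebral cortex of C57BL/6 pups at day P5, deleted for p16/p19 (the Ink4a/Arf locus) and infected with a retroviral vector for human EGFRvIII, a constitutively active EGF receptor. PT cells (n = 3) were glioma propagating cells cultured from tumours that such astrocytes had formed in CD1 Nude hosts, so that the PT cells descend from a population carrying the same deletion and receptor. All cultures were used at low passage, and the identity of the cells cannot be checked from peak lists. Input libraries (2 AstroEGFR, 1 PT) were not analysed here.

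H3K27me3 is the trimethylation of lysine 27 on histone H3, placed by Polycomb repressive complex 2 (PRC2), and it accompanies gene silencing. In the alpha and gamma clusters, each variable first exon has its own promoter and is spliced to constant exons shared by the whole cluster, whereas the beta genes are single-exon genes. In most neurons a promoter choice that differs from cell to cell gives each cell a surface identity for self-avoidance of its branches, while the C-type isoforms at the end of the alpha and gamma clusters are expressed more evenly. All 58 clustered protocadherin genes (14 alpha, 22 beta and 22 gamma) were found by symbol in the RefSeq annotation of GRCm38. There they stand in the order alpha, beta, gamma on chromosome 18, preceded by Zmat2 and followed by Diaph1 and Hdac3, with Slc25a2 and Taf7 among the protein-coding genes between them. The peaks are in mm9 coordinates, for which gene positions were not used here, so that no peak is assigned to a single promoter.

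The lists differed in length from 3722 peaks (AstroEGFR 3) to 66279 (PT 4), and the number of reads behind them is unknown. The peak score is the deposited value, whose scale the lists do not state; it was read as rising with the strength of the evidence for a peak, and the lowest score of a list lay between 70.05 and 75.69. Where no peak is listed the mark may still be present below the list's threshold. AstroEGFR 1, PT 1 and PT 4 held 179 to 236 peaks on unplaced sequences and the other 2 lists held 0, and values are therefore also given within these sets of lists.

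The mark covered at most 1.42% of the protocadherin interval in any library, an ordinary share among autosomal windows of the same length. In AstroEGFR 1, PT 1 and PT 4 most of it lay in a few places within the first 300 kb of the interval, whereas PT 3 was spread over the remainder and AstroEGFR 3 had no peak. Peaks of AstroEGFR 1 covered 13069 bp of the interval, or 1.42%. AstroEGFR 3 covered 0 bp. PT 1 covered 6051 bp (0.658%), PT 3 covered 8138 bp (0.885%) and PT 4 covered 10571 bp (1.15%). AstroEGFR 1 thus had the longest cover and AstroEGFR 3 the shortest, with the 3 PT libraries between them. The union of the 5 lists came to 25887 bp, or 2.81% of the interval.

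**Figure D1:**
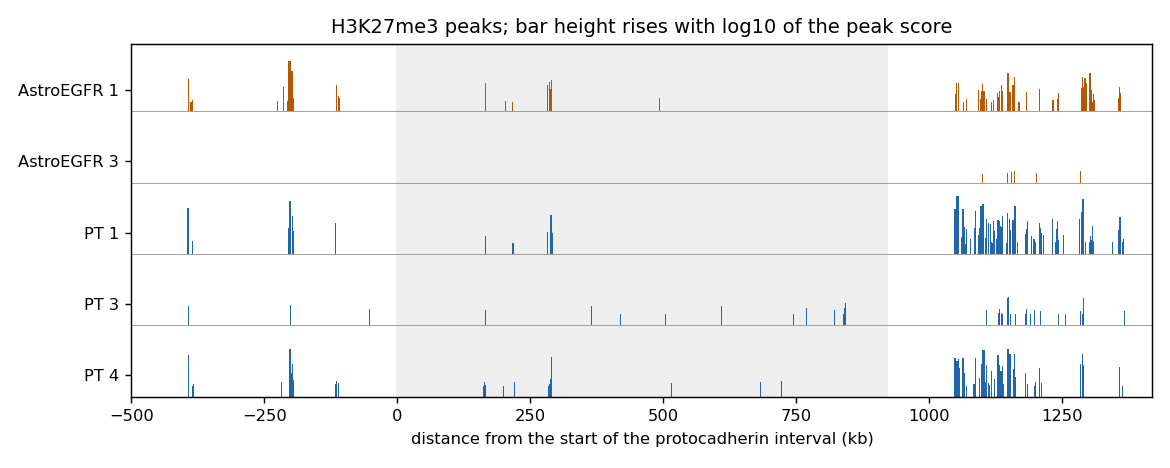
Peaks of the 5 libraries against the distance in kb from the start of the protocadherin interval, which is shaded; bar height rises with log10 of the peak score, and narrow peaks are drawn at least 2 kb wide. AstroEGFR libraries are orange and PT libraries blue, and the 38 peaks of the interval stand against 200 in the right flank.

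The strongest marking lay in a single 20 kb bin, the 15th of the 46 bins of the interval, at chr18:37365001-37385000. Peaks covered 40.8% of this bin in AstroEGFR 1, 23.6% in PT 1 and 26.6% in PT 4, and 0% in AstroEGFR 3 and PT 3. The bin alone gave 62.4% of the interval's covered length for AstroEGFR 1, 78.0% for PT 1 and 50.4% for PT 4. Among the 3 libraries that marked it, the astrocyte library had the longest cover. In these libraries the marking formed a broken domain of nearly the same extent, from 37366969 to 37376497 in AstroEGFR 1 (9529 bp, 5 peaks), from 37367004 to 37376255 in PT 1 (9252 bp, 3 peaks) and from 37367966 to 37376388 in PT 4 (8423 bp, 5 peaks). The last 4 kb of the domain held the highest-scoring peak of the interval in each of the 3 lists.

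That part of the domain made 1 merged region of 3967 bp, chr18:37372531-37376497. AstroEGFR 1 covered 3885 bp of it, PT 1 covered 3486 bp and PT 4 covered 3501 bp, and 3129 bp (78.9%) were common to all 3. The highest score in it was 411.08 in AstroEGFR 1, 743.05 in PT 1 and 803.80 in PT 4. These scores exceeded those of 87.5%, 89.8% and 91.9% of the peaks of the respective lists. Scores cannot be compared between lists of unknown depth. By these percentages the place of the peak within its list was similar in AstroEGFR 1, PT 1 and PT 4. Such a place also depends on the length of the list, which was 34021, 64504 and 66279 peaks. The peaks with these scores were 2899 bp (AstroEGFR 1), 2527 bp (PT 1) and 2772 bp (PT 4) wide, and each was also the widest of its library in the interval. The start of the domain was marked more unevenly. In the region chr18:37366969-37368913, AstroEGFR 1 covered 1945 bp with a score of 279.83, PT 1 covered 1234 bp with 196.48 and PT 4 covered 642 bp with 85.06, and 272 bp were common. Between the 2 regions, AstroEGFR 1 had a further peak of 1704 bp with a score of 335.22, at which PT 4 had 2 short peaks with scores of 86.47 and 96.84 and PT 1 had no peak.

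**Figure D2:**
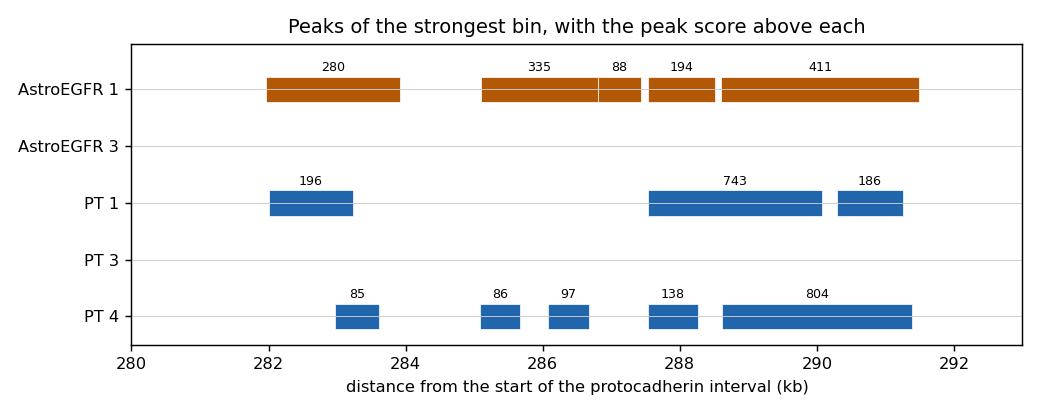
Peaks of each library inside the strongest bin against the distance in kb from the start of the protocadherin interval, with the score above each peak. AstroEGFR 1, PT 1 and PT 4 share a domain of about 8423 to 9529 bp, and AstroEGFR 3 and PT 3 have no peak there.

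A weaker focus in bin 9 was the place marked by the largest number of libraries. The merged region chr18:37249275-37251511 held a peak of AstroEGFR 1 (2237 bp, score 319.55), PT 1 (736 bp, score 144.72), PT 3 (648 bp, score 120.34) and PT 4 (603 bp, score 90.08). The PT peaks were narrower than the astrocyte peak and lay inside it, with 427 bp common to the 4 libraries. Wide peaks were a feature of the whole AstroEGFR 1 list, whose median width was 1031 bp. The list median was 808 bp for PT 1, 684 bp for PT 3, 792 bp for PT 4 and 764 bp for AstroEGFR 3. The part this plays in the narrower PT peaks was not tested. AstroEGFR 3 had no peak in the region. This was the single region of the interval that every PT library marked, and AstroEGFR 1 marked it as well. PT 4 added 2 short peaks before it, at 37246094 to 37246689 and 37247947 to 37248668, so that its cover of the bin was 9.61%, against 11.2% in AstroEGFR 1, 3.68% in PT 1 and 3.24% in PT 3.

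Bin 11, chr18:37285001-37305000, was marked in AstroEGFR 1 (7.37%), PT 1 (2.98%) and PT 4 (3.83%), but by peaks that did not overlap. The peak of AstroEGFR 1 ending at 37301341 and that of PT 1 starting at 37301529 were 187 bp apart. Their scores were 71.82 and 84.11, above 3.19% and 4.07% of the peaks of their lists. The other bins of highest mean cover, 43 and 42, were marked by PT 3 alone, at 9.33% and 6.47%.

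**Figure D3:**
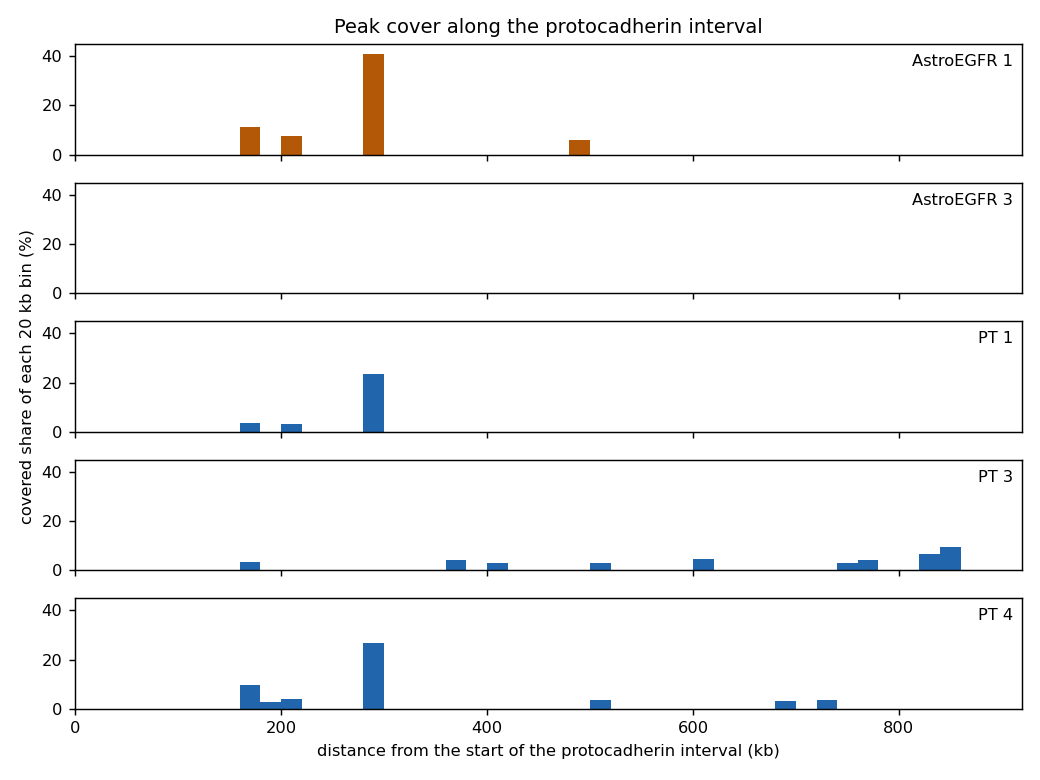
Covered share of each 20 kb bin in percent along the protocadherin interval, by library, against the distance in kb from its start. The bin at 280 kb reaches 40.8% in AstroEGFR 1, 23.6% in PT 1 and 26.6% in PT 4, whereas PT 3 is spread over 9 bins of at most 9.33%.

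PT 3 was distributed unlike the other marked libraries. With the interval divided after the strongest bin, a division chosen after the peaks were seen, its first 300 kb held 8 of the 9 peaks of AstroEGFR 1, 5 of the 5 of PT 1 and 10 of the 13 of PT 4, but 1 of the 11 of PT 3. In covered length these shares were 90.8% for AstroEGFR 1, 100% for PT 1 and 81.3% for PT 4, against 7.96% for PT 3. PT 3 placed 10 peaks over the remaining 620 kb, where PT 4 had 3, AstroEGFR 1 had 1 and PT 1 had 0. Over the autosomes the lists held 16.7 (PT 3), 27.4 (PT 4), 14.1 (AstroEGFR 1) and 26.7 (PT 1) peaks per Mb. In these 620 kb PT 3 was thus near its own autosomal rate, and PT 4, AstroEGFR 1 and PT 1 lay below theirs. The 10 peaks of PT 3 measured 569 to 1024 bp, around the median width of 684 bp over its whole list. Their scores were 85.28 to 198.50. The highest and widest of them, chr18:37926710-37927733, lay 119413 bp from the nearest peak of any other library and stood above 75.5% of its list. None of these 10 peaks overlapped a peak of another library, and the shortest distance to one was 9447 bp. Of all autosomal peaks of PT 3, 38.8% overlapped no other list. The list of PT 3 has no peaks on unplaced sequences, and the part this plays in the distribution was not tested.

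Most merged regions, though not most peaks of every library, were private to a library. The 38 peaks merged into 26 regions, of which 22 (84.6%) were marked in 1 library, 1 in 2, 2 in 3 and 1 in 4. Over the autosomes 57.3% of 98945 merged regions were marked in 1 library, in the left flank 58.8% of 17 and in the right flank 45.2% of 73. Of the 22 private regions, 10 belonged to PT 3. By peaks, 4 of 9 in AstroEGFR 1, 1 of 5 in PT 1, 10 of 11 in PT 3 and 7 of 13 in PT 4 overlapped no other list. These are shares of 44.4%, 20%, 90.9% and 53.8%. Among all autosomal peaks of these lists the shares were 18.9%, 26.3%, 38.8% and 26.7% in the same order. PT 1 was thus near its autosomal share, and AstroEGFR 1, PT 3 and PT 4 lay above theirs. In the same order the shares were 46.2%, 0%, 33.3% and 27.3% in the left flank. In the right flank they were 8.51%, 28.9%, 14.3% and 6.12%. For AstroEGFR 1 the share in the interval was thus close to that in the left flank. The AstroEGFR 1 and PT 1 peaks that overlapped another library were the stronger ones among the peaks of these libraries in the interval. In AstroEGFR 1 the 5 shared peaks stood above 67.8% to 87.5% of the list and the 4 private peaks above 3.19% to 32.5%. In PT 1 the 4 shared peaks stood above 50.9% to 89.8% and the private peak above 4.07%. PT 4 did not follow this order, with shared peaks above 8.13% to 91.9% and private peaks above 3.17% to 43.9%. In PT 3, 6 of the 10 private peaks exceeded the median score of the list. In the right flank, shared peaks had a higher median score than private ones in AstroEGFR 1 (158.45 against 90.49) and PT 1 (299.965 against 117.155). The same held there for PT 3 (102.095 against 88.23) and PT 4 (258.605 against 96.36). Stronger shared peaks were thus not particular to the interval.

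**Figure D4:**
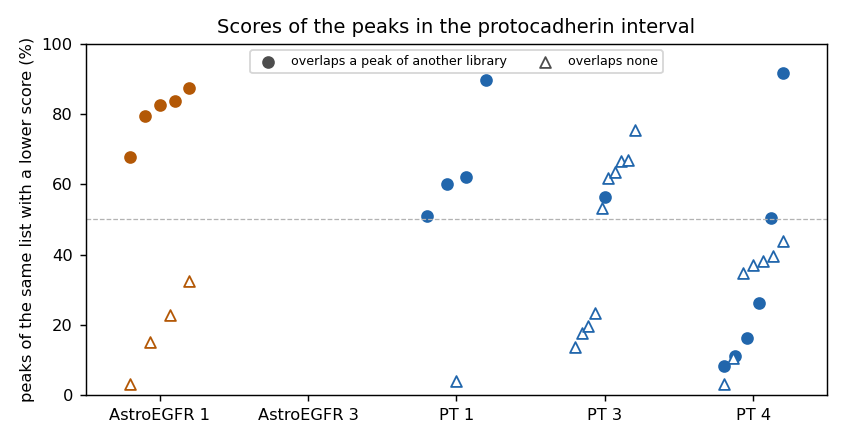
Percentage of peaks of the same list with a lower score, for each peak of the protocadherin interval by library; filled circles overlap a peak of another library, open triangles overlap none, and the dashed line marks the list median. The shared peaks of AstroEGFR 1 lie above 67.8% and its private peaks at or below 32.5%, and AstroEGFR 3 has no peak.

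By base pairs, AstroEGFR 1 and PT 1 shared 5378 bp of the interval, which was 41.2% of the cover of AstroEGFR 1 and 88.9% of that of PT 1. AstroEGFR 1 and PT 4 shared 5916 bp (45.3% and 56.0%), and PT 1 and PT 4 shared 3837 bp (63.4% and 36.3%). PT 3 shared 648 bp with AstroEGFR 1 and 648 bp with PT 1, which was 7.96% of its own cover in each case, and 427 bp (5.25%) with PT 4. In base pairs, the overlap of PT 1 and PT 4 with each other was thus shorter than that of either with AstroEGFR 1, the library of longest cover in the interval. The left flank had the same order, with 12553 bp shared by PT 1 and PT 4 and 13964 and 13150 bp shared by AstroEGFR 1 with PT 1 and PT 4. In the right flank the order was different, with 60742 bp shared by PT 1 and PT 4 and 47970 and 37442 bp shared by AstroEGFR 1 with PT 1 and PT 4. AstroEGFR 3 shared 0 bp of the interval with any library.

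The question of the study was whether H3K27me3 is redistributed between the stages. At the protocadherin interval, PT libraries held 9.67 ± 4.16 peaks (SD, n = 3) and AstroEGFR libraries 4.5 ± 6.36 (SD, n = 2), a difference of 5.17 peaks (exact permutation test, two-sided, p = 0.4). Covered length was 8253 ± 2262 bp (SD, n = 3) in PT and 6535 ± 9241 bp (SD, n = 2) in AstroEGFR, a difference of 1719 bp (exact permutation test, two-sided, p = 0.8). The smallest p this design allows is 0.1. Both differences were smaller than the range between the AstroEGFR libraries, and the direction of the second rested on AstroEGFR 3. Without that library PT covered less than AstroEGFR 1, by a difference of -4816 bp. Within the set with unplaced-sequence peaks the difference was -4758 bp and 0 peaks, since PT 1 and PT 4 averaged the 9 peaks of AstroEGFR 1. Within the other set it was 8138 bp and 11 peaks, the values of PT 3 against an empty AstroEGFR 3. Neither set has a replicate in AstroEGFR.

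No bin of the interval was gained by the tumour stage in the sense of a peak in every PT library and none in AstroEGFR 1 or 3. The count was 0 of 46 bins, against 2.34% of 120019 autosomal bins. Likewise, every PT share exceeded both AstroEGFR shares in 0 of 46 bins, against 3.97% of autosomal bins. At these autosomal rates 46 bins would hold 1.07 and 1.83 such bins, so counts of 0 are near the background. The reverse, with both AstroEGFR shares above every PT share, was also found in 0 of 46 bins, against 0.025% of autosomal bins. AstroEGFR 1 marked the single bin common to all 3 PT libraries, and its share there exceeded that of each PT library. A peak in all 3 PT libraries was present in 1 of 46 bins (2.17%), against 8.74% of autosomal bins, and a peak in all 5 libraries in 0, against 1.5%. AstroEGFR 1, PT 1 and PT 4 together marked 3 of 46 bins (6.52%, the bins 9, 11 and 15), against 8.89%.

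In the single lists, the interval was marked in fewer bins than the autosomes with 1 exception. AstroEGFR 1 marked 4 of 46 bins (8.70%, against 11.4% of autosomal bins), AstroEGFR 3 marked 0 (against 2.27%), PT 1 marked 3 (6.52%, against 17.9%) and PT 4 marked 7 (15.2%, against 18.5%). PT 3 marked 9 (19.6%, against 14.9%). At the autosomal rates 46 bins would hold 5.26 marked bins for AstroEGFR 1 and 1.05 for AstroEGFR 3. For PT 1, PT 3 and PT 4 they would hold 8.22, 6.84 and 8.51. Except in PT 1, the counts were thus near the background. Bins without a peak in any list numbered 31 of 46 (67.4%), against 73.2% of autosomal bins, and bins marked in 1 list only numbered 11 (23.9%), against 8.91%. Of these 11 bins, PT 3 alone marked 7, PT 4 alone 3 and AstroEGFR 1 alone 1. The bins without a peak formed 7 runs of at least 3 bins, 540 kb in all. The longest of these runs covered the first 160 kb of the interval, chr18:37085001-37245000, and the last run its final 60 kb, chr18:37945001-38005000.

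Measured by covered length, the interval lay below the share of all autosomes in each list. Dividing the share of the interval by that of the autosomes gave 0.685 for AstroEGFR 1, 0 for AstroEGFR 3, and 0.181, 0.543 and 0.328 for PT 1, PT 3 and PT 4. Against the share of chromosome 18 alone the ratios were higher, at 1.05 for AstroEGFR 1, 0 for AstroEGFR 3, and 0.261, 0.906 and 0.537 for PT 1, PT 3 and PT 4, so that AstroEGFR 1 was no longer below. Since AstroEGFR 3 had no cover, stages were compared by the difference of the shares in percentage points instead of a log ratio. The interval minus the autosomes was -2.02 ± 1.15 points (SD, n = 3) in PT and -0.395 ± 0.363 points (SD, n = 2) in AstroEGFR, a difference of -1.63 points (exact permutation test, two-sided, p = 0.2). Scaled to chromosome 18 this difference was -0.978 points (exact permutation test, two-sided, p = 0.2). This difference includes the higher autosomal share of PT 1 and PT 4 (3.64% and 3.50%) compared with AstroEGFR 1 (2.07%). As a ratio to the autosomes, PT averaged 0.351 ± 0.182 (SD, n = 3) and AstroEGFR 0.343 ± 0.485 (SD, n = 2; exact permutation test, two-sided, p = 1).

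The autosomal mean is raised by densely marked regions. Set beside the 2592 autosomal windows of the same length, 920 kb, the interval was ordinary. Its cover exceeded that of 66.4% of windows for AstroEGFR 1, and of 43.5%, 59.5% and 49.96% for PT 1, PT 3 and PT 4. The median window was covered to 0.511%, 1.12%, 0.488% and 1.15% in these libraries. In AstroEGFR 3, 63.7% of windows held no peak, as the interval did. At the autosomal density of peaks in that list, 1.396 peaks would have fallen in 920 kb. For AstroEGFR 1 the number was 12.95, against 9 observed. For PT 1, PT 3 and PT 4 it was 24.5, 15.3 and 25.2, against 5, 11 and 13 observed.

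The flanks were more densely marked than the interval, on the right side in particular. The right flank was covered to 12.3% and 0.918% in AstroEGFR 1 and 3, and to 21.9%, 3.21% and 13.9% in PT 1, PT 3 and PT 4, more than the interval in 5 of 5 libraries. It exceeded 84.5% to 97.0% of autosomal 500 kb windows. AstroEGFR 3, without a peak in the interval, had 7 peaks there. The left flank was covered to 4.36%, 0%, 3.01%, 0.523% and 3.15% in the same order, so that in PT 3 the interval was covered more than the left flank. Over both flanks, the interval was covered less in 5 of 5 libraries (a mean difference of -5.504 ± 4.76 points, SD, n = 5; exact sign-flip permutation test, two-sided, 2 of 32 sign patterns, the smallest p that 5 libraries allow and above 0.05). For the right flank alone the difference was -9.62 points, likewise 2 of 32, and for the left flank alone -1.39 points (exact p = 0.25). The deficit was -6.72 ± 5.43 points (SD, n = 3) in PT and -3.69 ± 4.56 points (SD, n = 2) in AstroEGFR, a difference of -3.03 points (exact permutation test, two-sided, p = 0.4), which without AstroEGFR 3 was 0.196 points, the opposite direction, and without PT 1 was -0.502 points. Within the set with unplaced-sequence peaks it was -2.67 points and within the other -0.522 points.

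**Figure D5:**
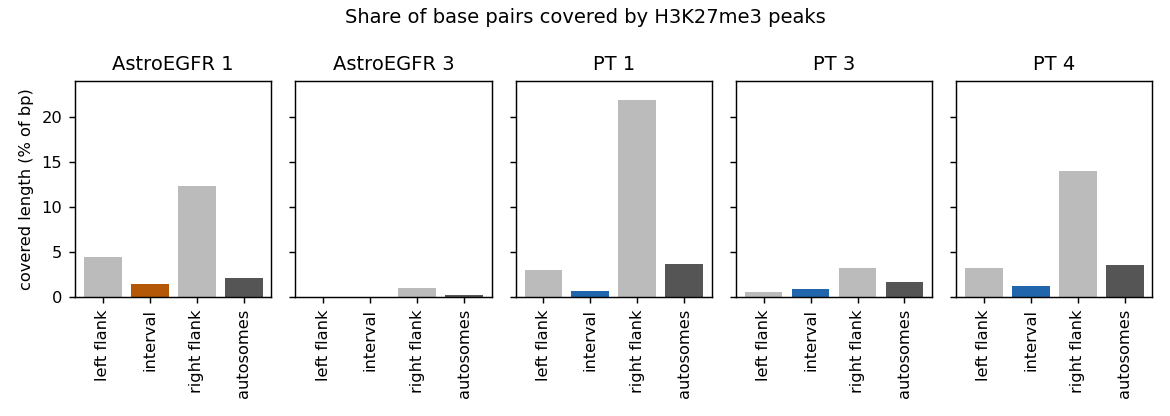
Share of base pairs covered by peaks, in percent, in the left flank, the protocadherin interval (coloured), the right flank and the autosomes, by library. The right flank exceeds the interval in all 5 libraries, from 0.918% against 0% in AstroEGFR 3 to 21.9% against 0.658% in PT 1.

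The dense marking did not reach the edge of the interval. The first right-flank peak began 129 and 180 kb beyond it in AstroEGFR 1 and 3, and 126, 187 and 127 kb beyond it in PT 1, PT 3 and PT 4, and the first 100 kb of that flank held no peak in any list. In PT 1 this left 755 kb without a peak, from the strongest bin to the right flank. In AstroEGFR 1 the longest stretch without a peak was 555 kb, in PT 4 it was 324 kb and in PT 3 it was 264 kb. Each of these 4 stretches ended at the right flank. On the left, the nearest peak was 110, 115 and 111 kb from the interval in AstroEGFR 1, PT 1 and PT 4, and 52.7 kb in PT 3.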

How the data were processed

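The submitters' processing notes name Bowtie 0.12.9, MACS 1.4.1 and the build mm9. Each deposited list gives chromosome, start, end, name and the authors' score per peak, and peaks are numbered list by list, as for separate calls per library. Read number, input and threshold are not given in the sources used here. The analysis used Python 3.11.15 with pandas 2.3.3, and covered length was checked against bedtools 2.31.1 and on 20 simulated lists. A peak counted with at least 1 bp in the interval. Bins of 20 kb ran on the same grid over 19 autosomes, from the first to the last peak of any list. Positions are printed 1-based. Tests treated each library as a unit, and p-values measure the spread between these libraries. Named bins were the 5 with the highest mean cover; the 5 with the widest gap between the lowest PT and highest AstroEGFR share were not named, since the gap was at most 0 in all 46. By rule, the strongest and the widest peak of each library were named; the other peaks given (those of bins 9, 11 and 15) were chosen after their values were seen. The interval, lists and rules were chosen with earlier results of these data known. Alternatives by score, list length, gaps, bins, flanks and omitted replicate were run. Figures were drawn with matplotlib 3.10.9.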

Additional observations from a re-analysis of the deposited data

How the results depend on the processing

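The low cover of the interval relative to its flanks kept its direction under the 12 alternatives run (from -8.69 to -0.720 points). So did the difference between PT and AstroEGFR in the interval's share minus that of the autosomes (from -2.27 to -0.388 points). As a ratio to the autosomes the stages were close, at 0.351 in PT and 0.343 in AstroEGFR. Scaled to chromosome 18, however, AstroEGFR 1 covered the interval by 0.0661 points more than the chromosome. No p-value fell below 0.05. With the strongest 3722 peaks of each list, no peak remained in the interval in any library, so the stage differences were 0 peaks and 0 bp. In that setting the interval minus the flanks could not be above 0. The value of -0.388 points came from the same setting and was a difference in autosomal share alone. The difference in covered length ranged from -4816 to 8253 bp with omission of 1 library at a time, negative without AstroEGFR 3 only, and was -4758 bp within the set with unplaced-sequence peaks, where the difference in peaks was 0. With the upper 50% by score in each list it was 33.5 bp. The difference in peaks ranged from 0.667 to 9.67 with a library left out, and that in the deficit against the flanks from -6.26 to 0.196 points. Bins gained in PT, by either definition, numbered 0 to 1 with a library left out (1 without AstroEGFR 1 or without PT 1) and 9 within the set without such peaks, the bins marked by PT 3. These within-set values were chosen after seeing the data. Libraries share the numbers 1 and 3 between stages, but the labels do not state that a number marks a tumour and its astrocytes; with that replicate block the differences were 3.50 peaks, 560 bp, -2.69 points against the flanks and -1.47 points against the autosomes, with 0 bins gained, the values obtained without PT 4. The cause of these changes was not tested. As depth is unknown, the absence of peaks in AstroEGFR 3 limits every comparison of stages.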
